A study of Drosophila melanogaster with 3 samples.

Results

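Cytosolic ribosomal protein (RP) genes encode the proteins of the ribosome that translates messenger RNA in the cytoplasm, as opposed to the separate ribosome of mitochondria. They were taken as the protein-coding genes of the Drosophila melanogaster annotation whose symbol starts with RpL (large subunit) or RpS (small subunit) followed by a digit, P or A, together with sta, which encodes the small-subunit protein RpSA. This rule gave 93 genes of 13968 protein-coding genes, 54 of the large and 39 of the small subunit. It uses symbols only, so it also takes in RpLP0-like, RpL24-like and RpL7-like, whose human relatives are known as factors of ribosome assembly, and second copies such as RpS5b and RpS19b.

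The ribosome needs its proteins in equal amounts, and loss of a single allele of many RP genes gives flies with short bristles and slow development, known as Minute. RP genes are among the most actively transcribed genes of growing cells, and many of them start at a TCT initiator, a polypyrimidine start sequence, in place of the usual initiator. Several carry small nucleolar RNA (snoRNA) genes in their introns.

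The libraries were chromatin immunoprecipitation (ChIP-seq) libraries of Coop (CG1621), known as a corepressor that acts with Pangolin (Pan), the TCF protein through which Wingless signals reach DNA. The line stably expresses CG1621 fused at its C terminus to GFP, and whole prepupae of mixed sex aged 24 h were used in 3 biological replicates of 1 group. There was 1 transgenic line and no second condition, so RP genes are compared with other genes of the same lists, and a whole organism mixes the chromatin of all its tissues. The free-text label calls each library an input control, but its assay, antibody and control fields describe a ChIP library, and every value rests on the second reading.

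Per the deposited notes, the lists come from reads aligned to dm6, with 1 control alignment shared by the 3 libraries, so an error of the control can recur in all lists. The deposited lists held 6626 thresholded peaks made from the replicates together, 30000 regions of the pooled replicates and 30000 regions of each replicate, and read depth is unknown. A gene was called bound in a list when a peak summit (the base of highest signal) lay within 500 bp of one of its transcription start sites (TSS). The 3 replicates are compared in their 6626 regions of highest signal, called the strongest regions below. Of these regions in replicate 1, 59.6% had a summit within 100 bp in replicate 2 and 55.5% in replicate 3, against 68.4% for replicate 2 in replicate 3. Replicate 1 therefore stood apart from the others, and in it 38.2% of all bound genes had the summit within 50 bp of the TSS, against 19.5% in replicate 2 and 23.5% in replicate 3. With 3 replicates an exact sign-flip permutation test cannot give a two-sided p below 0.25, so differences are set against their spread over replicates.

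Promoter sequence is shown first for the 4 genes of highest thresholded signal whose sequence could be printed, because the strongest RP summits lie at or near these starts. Each run holds 121 bases on the strand of the gene, in the release 6 reference genome of NCBI (dm6), with base 101 at the annotated TSS nearest to the summit. RpL7 lies at chr2L:10200904-10201024 on the plus strand, RpS27 at chr3R:25247494-25247614 on the minus strand, RpS4 at chr3L:13041701-13041821 on the plus strand and RpL23A at chr3L:1668634-1668754 on the minus strand. Capitals mark TCTTT or CTTTT within 10 bp of the TSS and GGTCACAC or its reverse complement GTGTGACC (Motif 1, the letters bound by the promoter factor M1BP).

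RpL7: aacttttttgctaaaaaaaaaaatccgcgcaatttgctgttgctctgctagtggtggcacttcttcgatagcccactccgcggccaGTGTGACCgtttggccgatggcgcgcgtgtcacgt
RpS27: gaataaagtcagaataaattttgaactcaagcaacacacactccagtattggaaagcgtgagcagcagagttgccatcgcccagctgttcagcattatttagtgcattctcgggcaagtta
RpS4: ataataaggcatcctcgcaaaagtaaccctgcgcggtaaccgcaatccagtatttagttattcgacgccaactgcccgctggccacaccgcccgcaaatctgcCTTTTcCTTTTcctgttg
RpL23A: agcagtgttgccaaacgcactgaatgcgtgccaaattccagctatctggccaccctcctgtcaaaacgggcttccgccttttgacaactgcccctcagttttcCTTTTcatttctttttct

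RpS4 and RpL23A have CTTTT just downstream of the TSS, RpL7 has GTGTGACC upstream of it, and RpS27 has none of these letters. The summit of RpL7 lay 44 bp downstream of the TSS, that of RpS27 14 bp and that of RpS4 16 bp downstream, and that of RpL23A 47 bp upstream. The summit of RpL7 therefore lies just past the end of its printed run.

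The second set shows the next 4 genes of highest signal after RpL7 among families with 2 copies, of those whose sequence could be printed. In most pairs only 1 copy was bound in the thresholded list, but RpL34b and RpLP0 belong to the 2 pairs with both bound. RpL34b lies at chr3R:9401206-9401326, RpL22 at chrX:765110-765230 and RpL24 at chr2L:13395072-13395192, all on the minus strand, and RpLP0 at chr3L:22075992-22076112 on the plus strand. Capitals have the same meaning, with base 101 at the TSS.

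RpL34b: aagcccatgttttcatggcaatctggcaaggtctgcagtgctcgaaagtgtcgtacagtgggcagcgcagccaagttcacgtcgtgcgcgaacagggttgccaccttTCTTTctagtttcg
RpL22: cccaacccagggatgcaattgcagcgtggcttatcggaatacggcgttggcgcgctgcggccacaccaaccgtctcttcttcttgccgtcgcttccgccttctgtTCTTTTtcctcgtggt
RpLP0: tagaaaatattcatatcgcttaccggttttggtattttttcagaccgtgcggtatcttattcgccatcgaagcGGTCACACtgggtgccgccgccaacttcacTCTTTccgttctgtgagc
RpL24: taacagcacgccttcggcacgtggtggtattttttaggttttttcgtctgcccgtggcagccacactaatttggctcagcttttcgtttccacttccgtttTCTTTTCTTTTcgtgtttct

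All 4 of these runs hold TCTTT within 10 bp of the TSS, and RpLP0 also holds GGTCACAC. The summit of RpL34b, 106 bp upstream, lies just before its printed run.

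RP genes were bound far more often than other genes. In the thresholded list 65 of 93 RP genes were bound (69.9%, exact Clopper-Pearson 95% interval 59.5% to 79.0%), against 2888 of 13875 other genes (20.8%) and a background of 21.1% over all genes. In the strongest regions 71, 56 and 45 RP genes were bound in replicates 1, 2 and 3, which is 76.3%, 60.2% and 48.4% of them. The shares of all genes were 25.9%, 21.3% and 18.1%. The mean was 61.6% ± 14.0 of RP genes and 21.5% ± 3.86 of other genes (SD, n = 3). The difference was 50.7, 39.2 and 30.5 percentage points in replicates 1, 2 and 3, and the mean difference of 40.1 was larger than its SD of 10.2. The lowest RP share, in replicate 3, was above the highest share of other genes, in replicate 1.

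**Figure D1:**
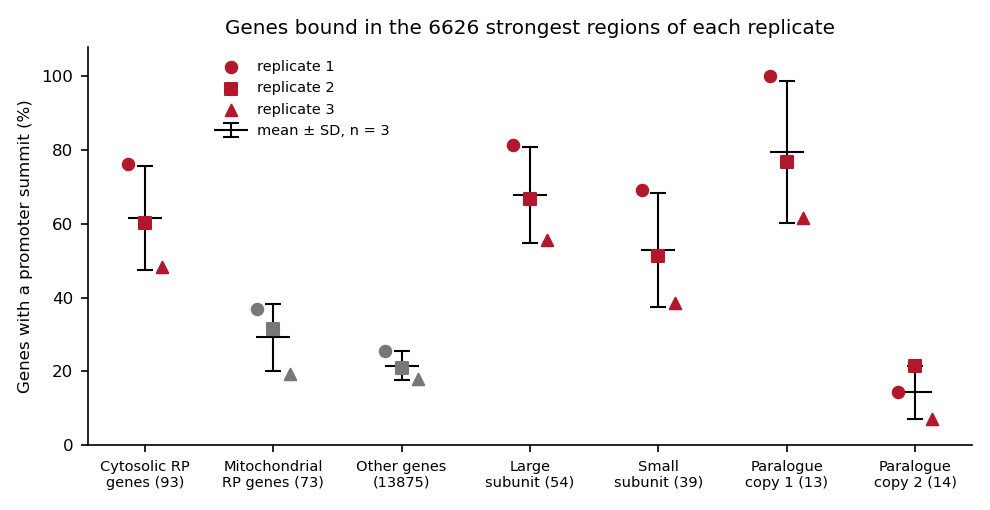
Share of genes with a promoter summit in the 6626 strongest regions of each replicate (percent), by gene group with the number of genes in brackets; points are replicates and bars are the mean and SD over 3 replicates. Cytosolic RP genes lie at 48.4% to 76.3% in every replicate, other genes at 17.9% to 25.6%, and second-named copies of RP gene pairs at 7.14% to 21.4%.

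Many RP genes outside the thresholded list had weaker summits. In all 30000 regions of replicates 1, 2 and 3, 86, 81 and 62 RP genes were bound, against 51.5%, 46.1% and 36.5% of all genes. In the pooled list 74 RP genes were bound, against 41.3% of all genes. RpL9, RpL37-2 and RpS30 had no promoter summit in any of the 5 lists (3.23% of RP genes), against 40% of all genes. In the strongest regions of all 3 replicates together 36 RP genes were bound (38.7%), against 12.7% of all genes.

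Genes of related function were bound less often than RP genes. Mitochondrial RP genes were bound in 19 of 73 cases in the thresholded list (26.0%), and in 37.0%, 31.5% and 19.2% of cases in replicates 1, 2 and 3. Genes of translation factors were bound in 17 of 42 cases (40.5%) and genes of ribosome biogenesis in 11 of 34 (32.4%). This did not hold for the strongest peaks. At thresholded rank 1000 or better lay 5.38% of RP genes, 9.59% of mitochondrial RP genes, 14.3% of translation factor genes and 11.8% of ribosome biogenesis genes. In replicate 1 RP genes led at that cut, with 28.0% against 9.59%, 16.7% and 14.7% in the same order.

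The strongest RP summit lay at RpL7, a protein of the large subunit. Its signal was 1368 in the thresholded list, rank 191 of 6626, and its rank was 71, 335 and 536 in replicates 1, 2 and 3. It had the best rank of all RP genes in each of the 3 replicates. Its summit lay 42 to 46 bp downstream of the TSS in all 3 replicates, the least scatter of the 36 RP genes bound in all of them. The same summit lies within 500 bp of a TSS of Ripalpha, which encodes a protein that interacts with replication protein A.

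RpS27, a small-subunit protein with a zinc finger, followed with a signal of 782 and rank 649. Its rank was 259 in replicate 1 and 982 in replicate 2, and replicate 3 had no summit within 500 bp of its TSS, the nearest being 5268 bp away. RpS4, an RNA-binding protein of the small subunit, had a signal of 715 and ranks of 378, 1298 and 990 in replicates 1, 2 and 3. RpL23A, which lies at the exit of the tunnel for the growing protein chain, had a signal of 671 and ranks of 352, 1317 and 1473. The gene sta had a signal of 639 and ranks of 446, 1877 and 771. Each of these 4 genes ranked best in replicate 1.

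Of the large subunit, RpL14 (signal 616) ranked 407, 1248 and 3295 in replicates 1, 2 and 3, and RpL13A (577), known in mammals for a role in translational control, ranked 428, 1721 and 2037. RpL13 (572) ranked 576, 2054 and 1159, RpL34b (565) ranked 610, 1274 and 1455, and RpL41 (542), the shortest RP, ranked 581, 2165 and 2292. RpL31 (519), also at the tunnel exit, ranked 551, 2159 and 2147. RpS25 of the small subunit (517) ranked 721, 1524 and 2316. The ranks of replicates 2 and 3 stayed in the stronger part of the list for all of these genes, and replicate 1 again placed each of them highest.

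**Figure D2:**
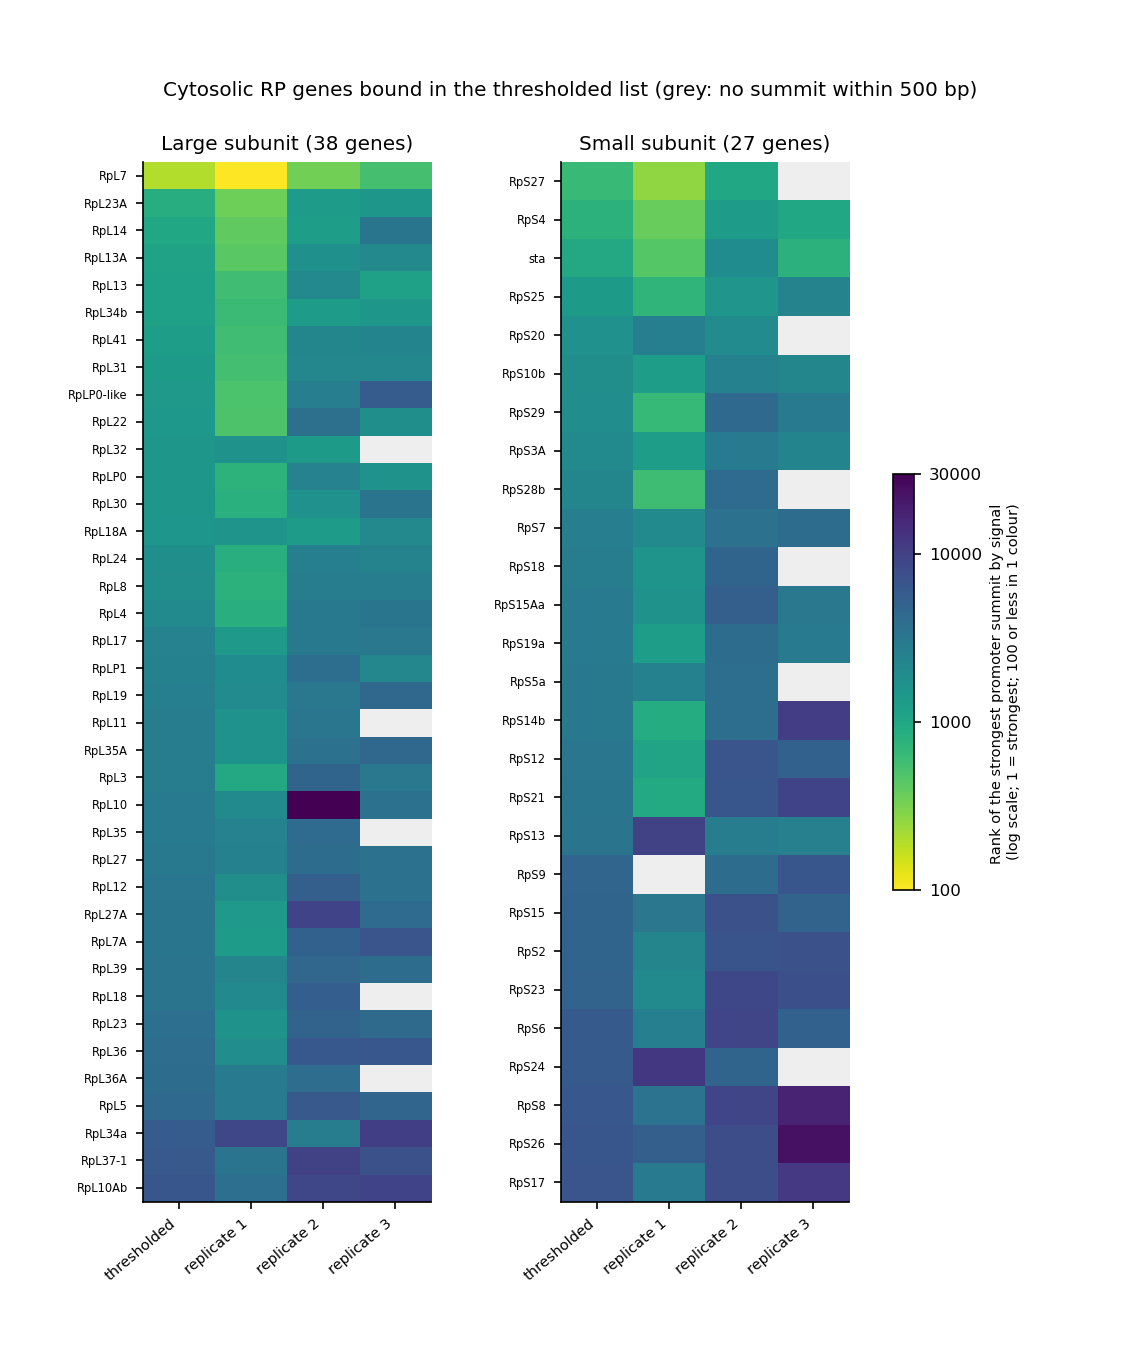
Rank of the strongest promoter summit of the 65 RP genes bound in the thresholded list (log colour scale, 1 is strongest) in the thresholded list and in all 30000 regions of each replicate, with the large subunit on the left and the small subunit on the right; grey marks no summit within 500 bp. RpL7 is the brightest row in every column (rank 71 to 536 in the replicates), and replicate 1 holds most of the bright cells.

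Within the thresholded list, the median signal of bound RP genes was close to that of other bound genes. The median rank in the thresholded list was 2736 for bound RP genes and 2993 for other bound genes, with median signals of 326 and 308. The signals of RP genes ran from 171 to 1368, and the weakest peak of the whole list had a signal of 171. The ranks of RP genes ran from 191 to 6608, and most lay between rank 1000 and 4000. Up to rank 2000 there were 25 RP genes (26.9%), against 7.42% of other genes. Up to rank 4000 there were 52 (55.9%), against 13.9% of other genes. None was among the strongest 100, and 5 of 93 ranked 1000 or better (5.38%, against 4.35% of all genes). Of bound genes, a smaller part of RP genes ranked 1000 or better, 5 of 65 against 603 of 2888 other genes.

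The replicates differed on this point. In replicate 1, 26 RP genes ranked 1000 or better (28.0%), against 4.37% of other genes. In replicate 2 only RpL7 and RpS27 did so (2.15%, against 4.02%), and in replicate 3 RpL7, RpS4 and sta (3.23%, against 4.07%). The median summit of bound RP genes stood 23.5%, 50.5% and 46.0% down the strongest regions of replicates 1, 2 and 3, against 44.2%, 45.4% and 39.8% for other bound genes. The mean difference of -3.12 percentage points was smaller than its SD of 15.3, and without replicate 1 it was 5.68, on the other side of 0. With all 30000 regions the medians lay further apart. Bound RP genes stood 6.03%, 13.45% and 13.4% down the list in replicates 1, 2 and 3, against 22.1%, 24.8% and 22.5% for other bound genes, and the mean difference of -12.2 percentage points was larger than its SD of 3.57. In the pooled list the median rank was 2906 for bound RP genes and 6504 for other bound genes, with median signals of 314 and 173.

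Of the 65 thresholded summits at RP genes, 35 had a summit within 100 bp in the strongest regions of all 3 replicates (53.8%, against 50% of other bound genes), 21 of 2 replicates and 9 of 1 replicate. By replicate, 61, 53 and 42 of the 65 were found in replicates 1, 2 and 3, or 93.8%, 81.5% and 64.6%. For other bound genes the shares were 79.9%, 82.8% and 69.9%. In replicate 3, 11 of the 65 had no promoter summit in all 30000 regions (16.9%, against 13.1% of other bound genes). Among them were RpS27, RpL32 and RpS20, which ranked within the strongest 2000 thresholded peaks.

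Summits at RP genes lay at the start site itself. In the thresholded list 52 of 65 bound RP genes had the summit within 50 bp of the TSS (80%), against 759 of 2888 other bound genes (26.3%). As a share of all genes this was 55.9% of RP genes against a background of 5.81%. The median distance without sign was 20 bp for RP genes and 116 bp for other bound genes. With sign, it was 5 bp upstream for RP genes and 76 bp upstream for other bound genes.

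The position was alike in the replicates. The share within 50 bp was 81.7%, 66.1% and 80.0% of bound RP genes in replicates 1, 2 and 3 (75.9% ± 8.57, SD, n = 3). It was 37.3%, 18.6% and 22.4% of other bound genes (26.1% ± 9.87). The difference of 49.8 percentage points was larger than its SD of 6.91. The median signed distance was -17, -12 and 0 bp for RP genes and -52, -103 and -69 bp for other bound genes, where negative is upstream. No thresholded RP summit lay 201 to 500 bp upstream, where 20.8% of summits of other bound genes lay.

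**Figure D3:**
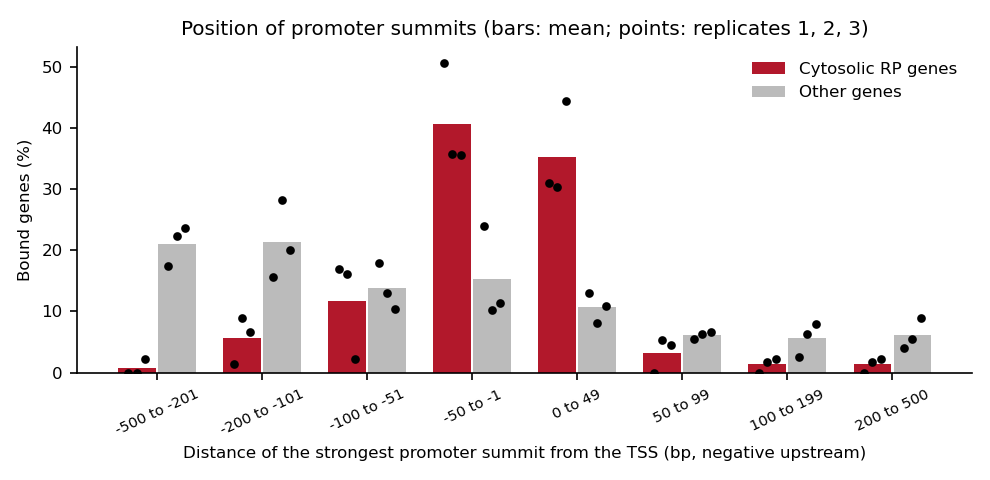
Position of the strongest promoter summit relative to the nearest TSS of the gene, as a share of bound genes in each distance class (bp, negative upstream), for cytosolic RP genes and other genes; bars are means over 3 replicates and points are the replicates. The RP genes pile up in the classes next to the TSS, and other genes spread to 500 bp upstream.

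Within the gene models, 34 of the 65 summits fell in an annotated 5′ UTR, 25 outside the gene, 4 in an intron and 2 in coding sequence. The intronic ones were at RpL3, RpL36A, RpS9 and RpS24, and those in coding sequence at RpS13 and RpS15. RpS13, a protein at the interface of the subunits, was the farthest, 396 bp downstream of its TSS in the thresholded list and 383 and 432 bp downstream in replicates 2 and 3, but 41 bp upstream in replicate 1 at rank 9649. RpL34a lay 174 bp upstream, RpS24 154 bp downstream, RpS20 133 bp, RpL32 114 bp and RpL34b 106 bp upstream. The other 59 of 65 lay within 100 bp.

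Fewer summits of the related gene lists lay that close. Of thresholded summits, 2 of 19 at mitochondrial RP genes, 3 of 17 at translation factor genes and 2 of 11 at ribosome biogenesis genes lay within 50 bp of the TSS. For the 36 RP genes bound in all 3 replicates, the summits of the replicates spanned a median of 45 bp, against 56 bp for 1733 other genes.

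The 2 subunits were bound alike in the thresholded list, with 38 of 54 large-subunit genes (70.4%, exact 95% interval 56.4% to 82.0%) and 27 of 39 small-subunit genes (69.2%, 52.4% to 83.0%). In the strongest regions, large-subunit genes were bound in 81.5%, 66.7% and 55.6% of cases in replicates 1, 2 and 3, and small-subunit genes in 69.2%, 51.3% and 38.5%. The difference was 12.3, 15.4 and 17.1 percentage points, with a mean of 14.9 larger than its SD of 2.46. In all 30000 regions it was 2.99 with an SD of 9.21, so the difference lay within the spread there.

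Large-subunit summits lay farther upstream than small-subunit summits in each replicate. The median distance was -20.5, -21.5 and -4.5 bp for large-subunit genes and -7, -4 and 22 bp for small-subunit genes. The mean difference of -19.2 bp was larger than its SD of 6.66. The sides of the TSS followed, with 75%, 66.7% and 60% of large-subunit summits upstream and 59.3%, 50% and 20% of small-subunit summits.

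By role in the ribosome, the stalk proteins, which recruit the translation factors that split GTP, were bound at RpLP0 (rank 1471) and RpLP1 (2450), and RpLP2 had only weaker summits at ranks 6597, 14819 and 12939 in replicates 1, 2 and 3. RpL5 (4252) and RpL11 (2710), which assemble with the 5S ribosomal RNA, were both bound. At the tunnel exit RpL23A (867), RpL31 (1342), RpL17 (2402), RpL19 (2579) and RpL35 (2835) were bound. RpL26 was outside the thresholded list, with rank 6078 in replicate 1. RpS6, the target of the growth-controlled S6 kinase, was bound at rank 5912, near the end of the thresholded list. The 3 genes that encode an RP joined to ubiquitin or a ubiquitin-like protein, RpL40, RpS27A and RpS30, were all outside the thresholded list. These roles were picked after the values were seen, and the genes named need not be all that serve a role. Of all RP genes 69.9% were bound in the thresholded list, so bound genes are common whatever the role.

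Genes with 2 copies showed the widest contrast among RP genes. The pairs were listed by hand from the symbols, and the first-named copy is, where known, the broadly expressed one, so that order was set with the values known and carries no test. Copy here means either gene of a pair. RpL7-like, RpL24-like and RpLP0-like, whose human relatives are factors of ribosome assembly, thus count as second-named copies and need not encode the same RP. Of 14 pairs, both copies were bound in the thresholded list in 2, the first-named copy alone in 11, and the second-named copy alone in 1. By gene, 12 of 13 first-named copies and 3 of 14 second-named copies (21.4%) were bound, since RpS28b enters 2 pairs. The share over all genes was 21.1%, so the second-named copies were bound about as often as genes at large. In the strongest regions of replicates 1, 2 and 3 the first-named copies were bound in 100%, 76.9% and 61.5% of cases. The second-named copies were bound in 14.3%, 21.4% and 7.14%, against 25.9%, 21.3% and 18.1% of all genes. Of RP genes in no pair 50 of 66 were bound (75.8%).

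RpL22 had a thresholded rank of 1445 and ranks of 496, 3627 and 1738 in replicates 1, 2 and 3. Its germline-enriched copy RpL22-like had none in the thresholded list, and ranks of 20484 and 27998 in replicates 1 and 2 only. RpL24 ranked 1764 in the thresholded list and 835, 2540 and 2319 in the replicates, and RpL24-like ranked 27605 and 11333 in replicates 1 and 2. The second-named gene was far weaker in both pairs.

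RpS10b ranked 1802 in the thresholded list and 1253, 2467 and 2165 in the replicates, against 23861 in replicate 1 alone for RpS10a. RpS19a ranked 2922, and 1263, 4018 and 2874 in the replicates, against 12848 and 18033 in replicates 1 and 2 for RpS19b. RpS5a ranked 3007, and 2463 and 3799 in replicates 1 and 2, against 8073 and 16759 for its germline-enriched copy RpS5b. RpS15Aa ranked 2889, and 1627, 5306 and 3056 in the replicates, against 13783 and 7273 in replicates 1 and 2 for RpS15Ab. RpS28b ranked 2174, and 587 and 4044 in replicates 1 and 2, against 8719 in replicate 1 for RpS28a and 13592 in replicate 2 for RpS28-like.

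RpL10Ab ranked 6506 in the thresholded list, near its end, and 3719, 8897 and 9574 in the replicates, and RpL10Aa had only rank 29806 in replicate 3. RpL37-1 ranked 6045, and 3374, 10066 and 7282 in the replicates, and RpL37-2 had no summit. RpL7-like had only rank 8384 in replicate 1.

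The exceptions were 3 families. RpLP0 (rank 1471) and RpLP0-like (1362) were both bound, and RpLP0-like ranked 504, 2644 and 5660 in replicates 1, 2 and 3, but its summit lay nearer to the TSS of 14-3-3zeta. RpL34b ranked 1155 and RpL34a 5695, and RpL34a ranked 8965, 2747 and 10349 in the replicates, with a summit nearer to the TSS of Trmt61. RpS14b was bound (rank 3018, and 887, 3784 and 10608 in the replicates), and RpS14a was not, with ranks of 6087, 9414 and 10054. RpS14a and RpS14b are near-identical neighbours on the X chromosome, so reads may not have been assigned to the right copy.

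**Figure D4:**
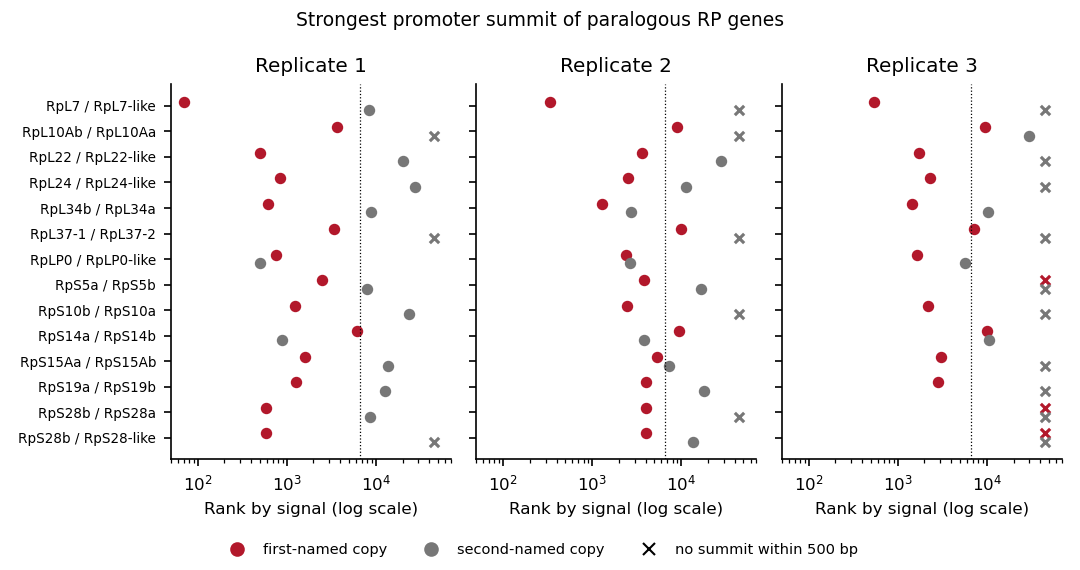
Rank of the strongest promoter summit (log scale, lower is stronger) of the first-named and second-named copy of 14 RP gene pairs in each replicate; crosses mark no summit within 500 bp and the dotted line is rank 6626. The first-named copy lies left of the dotted line in every pair in replicate 1, and 2 second-named copies do.

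Of the 28 RP genes outside the thresholded list, 16 belonged to the large and 12 to the small subunit. There were 16 with no summit in the strongest regions of any replicate, including the second-named copies RpL10Aa, RpL22-like, RpL24-like, RpL37-2, RpL7-like, RpS10a, RpS15Ab, RpS19b, RpS28-like, RpS28a and RpS5b. RpL9, RpL21, RpL40 and RpS30 were also among them. RpL21 ranked 6747, 18261 and 9186 in replicates 1, 2 and 3, and RpL40 ranked 6683, 10049 and 7668. Both thus had weak summits just past the strongest regions or further down.

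A further 9 were bound in the strongest regions of 1 replicate. In replicate 1 these were RpL15 (rank 3275), RpL26 (6078), RpL29 (3883), RpL6 (5986), RpLP2 (6597), RpS14a (6087) and RpS27A (1075). In replicate 3 they were RpL38 (4470) and RpS3 (6424). RpS27A ranked high in replicate 1 and had no promoter summit in any other list. The same lack of other summits held for RpL29, RpL6 and RpL38. RpL15 also ranked 7864 in replicate 3, and RpL26 ranked 10291 in replicate 2. RpS3 also ranked 7223 and 9160 in replicates 1 and 2 and 6985 in the pooled list.

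RpL28, RpL37A and RpS16 were bound in the strongest regions of replicates 1 and 2 with no summit in the pooled list (3.23% of RP genes, against 1.02% of all genes). RpL28 ranked 648 and 3985 in replicates 1 and 2, RpL37A 1432 and 3619, and RpS16 931 and 3549. Their nearest pooled summits lay -2063, 7322 and -12806 bp from the TSS, in the same order, where negative is upstream. In the strongest regions of replicate 1, 8 bound RP genes lacked a pooled summit, these 3 among them (8.60% of RP genes, against 3.47% of all genes). As a share of the genes bound there this was 8 of 71 RP genes (11.3%), against 13.4% of other genes. In replicate 2 the same share was 3 of 56 RP genes (5.36%), against 8.02% of other genes.

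Some RP summits lay in a start region shared with another gene. The summit of 26 of 65 bound RP genes (40%) also lay within 500 bp of a TSS of another protein-coding gene. The matching share was not computed for other bound genes, so 40% cannot be read as a trait of RP genes. The RP gene had the nearest TSS in 63 of the 65, the exceptions being RpLP0-like and RpL34a. RpL13 shared its summit with Dref, the gene of the DRE-binding factor, RpL14 with Nelf-E, a subunit of a factor that pauses RNA polymerase, and RpL36 with Mybbp1A. RP genes with a TSS of the opposite strand within 1000 bp upstream were bound in 44 of 56 cases (78.6%), and the others in 21 of 37 (56.8%). The same shares were 30.4% and 15.4% for other genes.

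RP genes that host a snoRNA gene were bound in 25 of 29 cases (86.2%), and the other RP genes in 40 of 64 (62.5%). Of genes other than RP genes, 21 of 55 snoRNA hosts were bound (38.2%), against 20.7% of those that host none. On the X chromosome 14 of 15 RP genes were bound, RpS14a being the exception, against 21.1% of other genes there. On the large autosome arms 60.9% to 78.6% of RP genes were bound, against 20.1% to 21.4% of other genes. RpS3A, the RP gene of chromosome 4, was bound at rank 1954 with a summit 2 bp downstream of its TSS, where 3 of 79 other genes of that chromosome were bound.

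RP promoters held letters that most promoters lack. TCTTT, the core of the TCT initiator, lay within 10 bp of the TSS on the gene strand in 46 of 93 RP genes (49.5%), against 2.62% of other genes and 2.93% of all genes. These counts use 1 TSS per gene, that with most transcripts, whereas the runs shown above start from the TSS nearest to the summit. RpLP0 and RpS4 are therefore counted without the letters capitalised in their runs. CTTTT, which overlaps TCTTT and was added after the sequences were seen, lay there in 43.0% of RP genes, against 3.83% of other genes and 4.09% of all genes. TATAAA lay 15 to 45 bp upstream in 1 RP gene of 93, against 9.22% of other genes and 9.16% of all genes. In a window of 301 bp around the TSS, on both strands, TATCGATA (the DNA replication-related element, DRE) occurred in 28 of 93 RP genes (30.1%), against 9.10% of other genes and 9.24% of all genes. The shorter ATCGATA, which is part of TATCGATA, occurred in 39.8% of RP genes and 17.8% of other genes (18.0% of all). GGTCACAC occurred in 15.1% of RP genes, 7.73% of other genes and 7.78% of all genes. CGATA, also part of TATCGATA, occurred in 73.1% of RP genes, 47.3% of other genes and 47.5% of all genes. GAGAG occurred in 17.2% of RP genes and 30.4% of other genes (30.3% of all), CAGCTG in 9.68% and 17.8% (17.8% of all) and TGCATA in 14.0% and 15.4% (15.4% of all).

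TCTTT and TATCGATA were about as frequent at bound as at unbound RP genes. TCTTT lay at the TSS of 31 of 65 bound RP genes and of 15 of 28 unbound ones. RP genes with TCTTT were bound in 67.4% of cases and RP genes without it in 72.3%. Other genes with TCTTT were bound in 23.1% of cases, and other genes without it in 20.8%. Of these bound other genes with TCTTT, 25% had the summit within 50 bp of the TSS, against 83.9% of bound RP genes with TCTTT and 76.5% of bound RP genes without it. TATCGATA occurred in 29.2% of bound and 32.1% of unbound RP promoters. Other letters differed more. TGCATA occurred in 12 of 65 bound RP genes (18.5%) and in 1 of 28 unbound ones (3.57%), against 14.2% of bound and 15.7% of unbound other genes. CGATA occurred in 78.5% of bound and 60.7% of unbound RP genes, and GAGAG in 20% and 10.7%. For other genes the shares were 49.3% and 46.8% for CGATA and 37.8% and 28.4% for GAGAG. None of these differences was tested.

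CTTTGAT, the core of the Pan site, occurred in 5 of 93 RP promoters (5.38%), against 5.05% of other promoters. In 201 bp centred on the summit it occurred at 1 of 65 bound RP genes, against 2.39% of other bound genes. TATCGATA occurred in 23.1% of these summit windows of RP genes and in 5.92% of those of other bound genes. The median GC content of the summit windows was 43.8% at RP genes and 41.3% at other bound genes. A match of letters is a description of the sequence and shows no binding of a factor.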

How the data were processed

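Peak lists from 3 ChIP-seq libraries of 1 group were analysed, numbered by the biological replicate given in the labels. The deposited lists are on dm6, per the labels, and give for each region a signal value made by the authors' peak caller, a deposited −log10 q value, which was not used, and a deposited summit offset, another column of the authors. Their peak caller and the threshold of the thresholded list are not given in the sources used here. Signal scales differ between lists, so ranks within a list were used. Whether replicates came from separate cultures or animals is stated only as biological replicates, so the SD may hold technical spread, and read depth is unknown, so exact intervals (95%) cover counting error over genes only.

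Summits were assigned to TSS of the Ensembl release 115 annotation (BDGP6.54) within 500 bp on 19276 distinct TSS, and a summit counted for every gene in reach. The assignment was checked on simulated data. Python 3.11.15, pandas 2.3.3, numpy 2.4.6, scipy 1.17.1 and matplotlib 3.10.9 were used. Motifs were searched from 250 bp upstream to 50 bp downstream of the TSS with most transcripts. Of 43 translation factor names 42 matched a gene, and of 40 ribosome biogenesis names 34.

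Members, lists, motifs and tests were chosen with earlier results of these data known. Full values were given for the 12 RP genes of highest thresholded signal, for copies of pairs and for RP genes outside the thresholded list, 1 of which is not reported here. Other RP genes named by position, role or neighbour, the share within 50 bp, the comparison of copies and CTTTT were chosen after values were seen. Alternatives were other windows, fewer regions (3313), nearest TSS only, the most upstream TSS, fewer members, all regions, peaks found in all replicates and leaving out each replicate.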

Additional observations from a re-analysis of the deposited data

How the results depend on the processing

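The share of RP genes bound in the thresholded list was 49.5% with the 3313 strongest peaks, against 11.7% of other genes. With peaks found in all 3 replicates it was 37.6%, against 10.5%. The difference from other genes in the replicates was 29.8 percentage points with 3313 regions, and ran from 34.8 to 44.97 without each replicate. The difference of large minus small subunit was 8.69 with a window of 1000 bp, 11.9 with 3313 regions, 10.6 with the nearest TSS only and 2.99 in all regions (13.8 to 16.2 without each replicate). The signal position changed side, at 11.4 with 3313 regions, 7.75 with peaks found in all replicates and 5.68 without replicate 1 (-7.81 to 5.68 without each replicate). In all regions it was -12.2 with an SD of 3.57, against -3.12 with an SD of 15.3 in the strongest regions. The difference in signed distance was 32.3 bp and that in the share within 50 bp 39.1 points with the most upstream TSS (52 to 80 bp and 45.9 to 52.5 points without each replicate). The difference between copies was 37.7 points in all regions (54.9 to 70.6 without each replicate). The cause of these shifts was not tested, beyond the smaller number of regions or replicates. The other settings kept the direction and moved the replicate values by less than the replicate spread. For the thresholded share, which has no replicates, they stayed within its exact interval of 59.5% to 79.0%. It was 78.5% without -like members and second-named copies, near the upper end. No paired analysis was possible because there is 1 group of samples. Unknown read depth limits what a missing summit shows.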
